A study of Arabidopsis thaliana with 8 samples.

Results

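Plastid ribosomes are bacterial-type ribosomes that translate the genes kept in the plastid genome, and most of their proteins are encoded in the nucleus, made in the cytosol and imported. In leaves these ribosomes serve chloroplasts, which make large amounts of the photosynthetic proteins of the plastid genome; in roots they serve colourless plastids, which still make a smaller set of proteins. The 6 nuclear loci followed here belong to this machinery in Arabidopsis thaliana. They are AT5G65220, AT4G01310 and AT3G54210, for the large-subunit proteins L29, L5 and L17; AT3G13120 and AT1G64510, for the small-subunit proteins S10 and S6; and AT1G12800, for a plastid RNA-binding protein that carries an S1 domain, an RNA-binding fold first described in a bacterial ribosomal protein. They were chosen by locus, as the plastid ribosomal and S1-domain genes for which an array probe was annotated to that locus alone. This gave 6 probes, 1 per locus, of 692 single-gene probes and 3439 probes on the array. No probe sequence was used, so whether each probe reports the locus it is annotated to was not tested. An additional probe that names AT1G12800 together with another locus is described beside them.

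The arrays carried total RNA of wild-type plants of the ecotype Columbia 0, from leaves on 4 arrays and from root material on 4 arrays, and the stated aim was to compare the tissues. The labels state neither age, growth conditions nor the number of plants behind an array, nor whether replicates came from separate plants, so the spread between arrays may be technical. Each probe has 1 intensity per array, on a relative scale from 0 to 100. Precision is limited by the number of arrays, and no measure of background is given with the intensities. The list of loci was drawn up when their tissue differences on these arrays were already known. For that reason the differences between root and leaf are described with their errors, and no p-value is given for them.

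Between 20.0% and 22.8% of the probes were listed at exactly 0 on the leaf arrays, and between 12.8% and 15.1% on the root arrays. In both tissues replicates 1 and 2 resembled each other, as did replicates 3 and 4. Over probes above 0.2 on both arrays, the log2 ratio of 2 arrays of a tissue had an SD of 0.225 to 0.391 within these pairs and of 0.501 to 0.598 between them. The labels give no reason for the split, and values are therefore shown for each array. The 4 photosynthesis genes taken as leaf markers, LHB1B2, PRK, PSAN and PSBY, were all brighter on every leaf array than on any root array. Their mean intensity was 3.16-fold (PSBY) to 46.8-fold (LHB1B2) higher in leaf. Of all probes, 15% were separated in this direction. The markers were listed with earlier results of these data known, so they are no independent check of the leaf label. No root marker was available for the root arrays.

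The ribosomal protein probes did not share one tissue pattern. L29 was far brighter in root and L5 moderately so, L17 was somewhat brighter in leaf, S10 was dim and detected more regularly in root, and S6 was at or near 0 in both tissues. The S1-domain gene was, like L29, brighter in root and brighter in replicates 1 and 2 of either tissue. The test fitted across all probes (limma, Benjamini-Hochberg adjusted p below 0.05) called 2 of the 6 probes higher in root, L29 and the S1-domain gene, against 20.1% of all 3298 probes tested, and 1 higher in leaf, L17, against 22.1%; the other 3 were not called. Without normalisation between arrays it called 4 of the 6 higher in root, L5 and S10 being added, against 34.5% of all probes, and 1 higher in leaf against 14.9%. On the intensities as deposited, 3 of the 6 were brighter on every root array than on any leaf array, a separation that 34.3% of all probes showed, and 0 of the 6 were separated in the other direction, against 15% of all probes. These counts are set beside the background only to place the probes, since the tissue difference was known when the loci were listed. In RNA from whole organs, fewer cells of a type and less RNA per cell cannot be told apart.

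**Figure D1:**
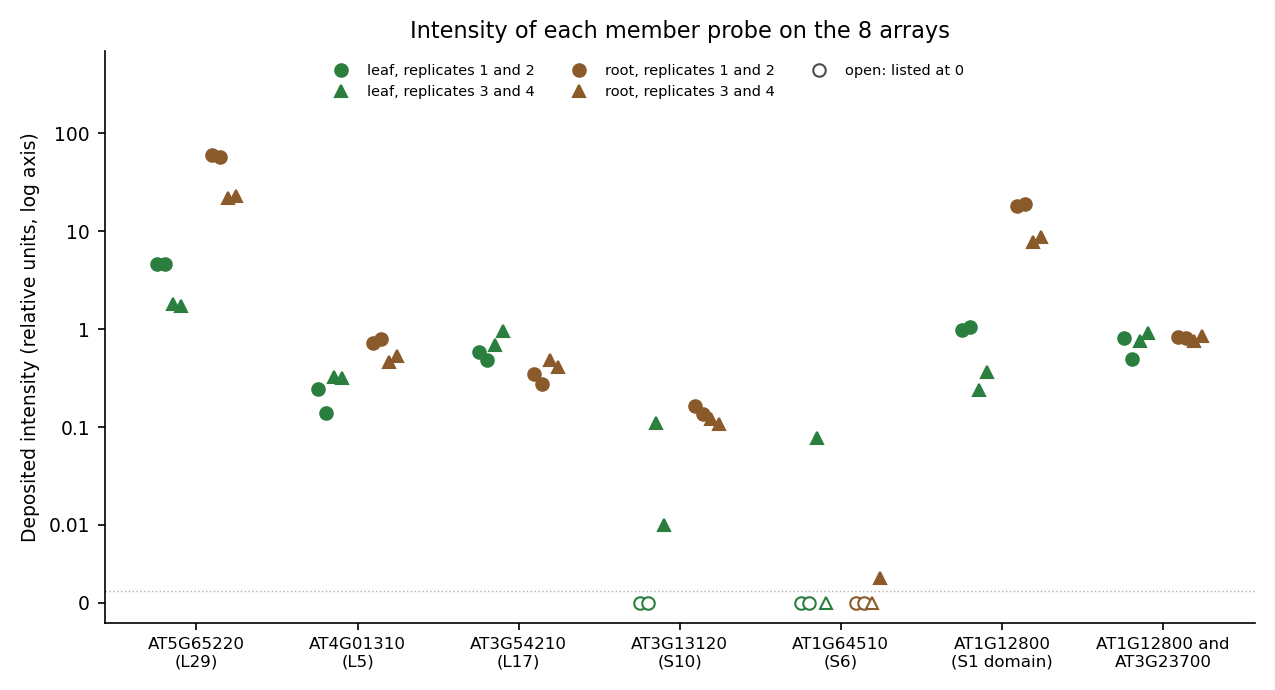
Deposited intensity (relative units, log axis) of the 6 member probes and of the probe shared by AT1G12800 and AT3G23700, for each of the 4 leaf and 4 root arrays; each point is 1 array, circles are replicates 1 and 2, triangles replicates 3 and 4, and open symbols below the dotted line were listed at 0. L29 and the S1-domain gene lie about an order of magnitude higher in root, L17 and L5 lie closer together, and S6 was above 0 on 2 arrays only.

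L29 is a small protein of the large subunit that lies, in bacterial ribosomes, beside the exit of the tunnel through which the new chain leaves. Its probe read 4.59, 4.66, 1.82 and 1.71 on leaf arrays 1 to 4 and 60.7, 57.5, 22.1 and 22.9 on root arrays 1 to 4. All root values lay above all leaf values, and within each tissue replicates 1 and 2 lay above replicates 3 and 4. Leaf arrays averaged 3.20 ± 1.65 and root arrays 40.8 ± 21.2 (SD, n = 4 for either tissue). These SDs come almost wholly from the split between the replicate pairs: root over leaf was 12.8-fold for replicates 1 and 2 and 12.7-fold for replicates 3 and 4. After quantile normalisation between arrays, the log2 difference, root minus leaf, was 3.66 ± 0.39 (SE), and it lay between 3.19 and 3.89 under 21 alternative settings. By brightness the spot stood between the 92.3rd and the 97.0th percentile of the probes on the leaf arrays and between the 99.5th and the 99.8th on the root arrays, below the ceiling of the scale.

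L5 helps to hold the small ribosomal RNA of the large subunit in place. Its probe read 0.247, 0.140, 0.325 and 0.314 in leaf and 0.714, 0.788, 0.458 and 0.534 in root. The tissues did not overlap, and the distance between them was wider in replicates 1 and 2 than in replicates 3 and 4. Mean intensity was 2.43-fold higher in root, 3.87-fold within replicates 1 and 2 and 1.55-fold within replicates 3 and 4. The size of the difference also depended on how the arrays were scaled: on the log2 scale it was 0.71 ± 0.25 (SE) after quantile normalisation, which limma did not call, and 1.32 on the intensities as deposited, which it did. Scaling moved all probes, since the median log2 difference of the whole array was 0.05 after quantile normalisation and 0.80 as deposited. Relative to these medians the L5 difference was of similar size either way.

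L17 is a large-subunit protein that, in bacteria, is likewise found near the exit of the tunnel. Its probe read 0.583, 0.479, 0.684 and 0.952 in leaf and 0.349, 0.274, 0.490 and 0.411 in root. Leaf arrays were mostly the brighter ones, and the tissues overlapped by 1 array each, leaf replicate 2 lying just below root replicate 3. Mean intensity was 1.77-fold higher in leaf, 1.70-fold within replicates 1 and 2 and 1.82-fold within replicates 3 and 4, so the deposited ratio was nearly the same in both pairs. The log2 difference was -1.29 ± 0.35 (SE) after quantile normalisation and -0.81 as deposited. The call towards leaf was lost in 4 of 21 alternatives: without root replicate 1 (-1.22), with scaling to a common mean (-0.79), in replicates 3 and 4 only (-1.08), and with averages of the replicate pairs (-1.29).

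S10 belongs to the head of the small subunit; its bacterial counterpart also takes part in transcription antitermination. The probe was listed at 0 on leaf arrays 1 and 2 and read 0.111 and 0.00989 on leaf arrays 3 and 4. On the root arrays it read 0.162, 0.135, 0.121 and 0.108. Root was detected on 4 of 4 arrays within a narrow range and leaf on 2 of 4, and leaf replicate 3 overlapped with the root arrays. Of all probes, 20.0% to 22.8% were listed at 0 on leaf arrays and 12.8% to 15.1% on root arrays. By brightness within its array, S10 stood at the 40.5th percentile on leaf replicate 3. On the root arrays it stood lower, between the 26.1st and the 31.7th. Because 2 of the 4 leaf values were 0, no fold is given, and a log2 difference depends on what stands in for 0: it was 1.95 with the floor used here, 0.74 with a floor at the 5th percentile and 0.05 with zeros treated as missing. Leaf replicate 3 also weighed on it, the difference being 2.84 without that array, which limma called. The replicate pairs disagreed, at 3.83 from replicates 1 and 2 alone and -0.082 from replicates 3 and 4 alone.

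S6, which in bacteria sits on the platform of the small subunit as a partner of S18, was hardly measured. Its probe was listed at 0 on 3 of 4 leaf arrays and 3 of 4 root arrays, with 0.0767 on leaf replicate 3 and 0.00283 on root replicate 4. Nothing can be said from it about a tissue difference. The probe carries a number divisible by 6, and of 261 such probes 85.1% were listed at 0 on 4 or more arrays, against 11.4% of the 3178 others. Whether a position on the array lies behind this was not tested.

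The S1-domain gene AT1G12800, whose product acts on plastid RNA and is not counted among the ribosomal subunits, showed the widest tissue difference of the 6. Its probe read 0.976, 1.05, 0.240 and 0.361 in leaf and 17.9, 19.0, 7.74 and 8.76 in root. All root arrays lay far above all leaf arrays, and replicates 1 and 2 again lay above 3 and 4 in both tissues. The mean was 0.656 ± 0.415 in leaf and 13.3 ± 5.92 in root (SD, n = 4 each), a ratio of 20.3, with 18.2 within replicates 1 and 2 and 27.5 within replicates 3 and 4. The log2 difference was 4.65 ± 0.50 (SE) and lay between 4.02 and 4.91 under 21 alternatives. This probe too has a number divisible by 6, but it was above 0 on all arrays.

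A further probe is annotated to AT1G12800 and to AT3G23700, a locus for another S1-domain protein of plastids. It read 0.813, 0.499, 0.763 and 0.912 in leaf and 0.823, 0.813, 0.752 and 0.860 in root. Its tissues overlapped throughout, and its log2 difference of -0.16 ± 0.23 (SE) was not called and changed sign with the scaling (0.15 as deposited). Nor did it show the split between replicate pairs, replicates 1 and 2 over 3 and 4 being 0.783 in leaf and 1.02 in root. The 2 probes that name AT1G12800 thus gave different tissue ratios, 20.3 and 1.09, root over leaf. Which of them reports the transcript of this locus was not tested, and the large tissue difference rests on the single-gene probe alone.

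**Figure D2:**
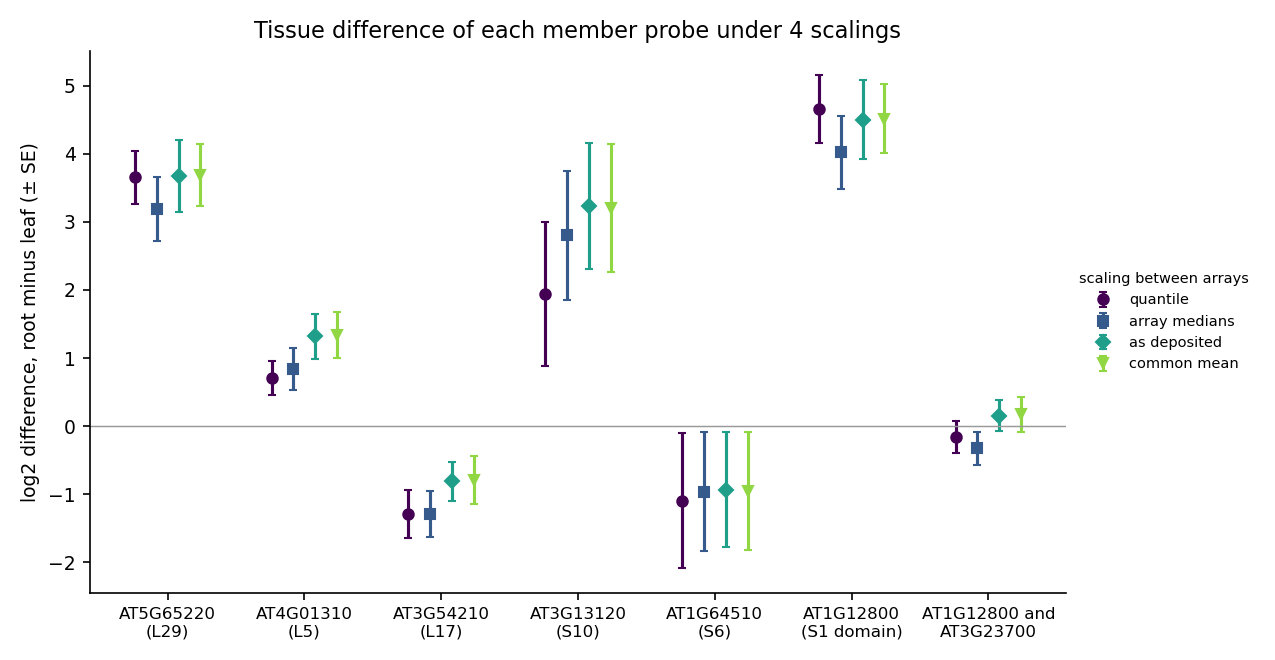
Log2 difference, root minus leaf, with limma's standard error for the 6 member probes and the shared probe, under 4 scalings between arrays (quantile normalisation, centring on array medians, intensities as deposited, and scaling to a common mean). L29 and the S1-domain gene stay above 3 under each scaling and L17 stays below 0, the L5 and S10 differences grow when arrays are left as deposited, and the shared probe changes sign.

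Brightness of different spots depends on the probe as well as on the transcript, so the levels of the members were not ranked as amounts of RNA. The ratio of the same 2 probes within an array can be compared between arrays, and the scaling of the array cancels in it. For the 4 members above 0 on every array there were 6 such pairs. In 6 of 6 the leaf and root ratios did not overlap, against 53.5% of all pairs of probes above 0 on every array. The 6 pairs share 4 probes, so they are not independent. The tissue differences of these probes were also known when the loci were listed, and the count is a description only. A shifted ratio shows that the signals of 2 probes changed unequally and does not tell which of them changed.

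Within the large subunit, the log2 ratio of L29 to L17 was 2.98, 3.28, 1.41 and 0.84 on the leaf arrays and 7.44, 7.71, 5.50 and 5.80 on the root arrays. The step between tissues was 4.48 on the log2 scale, or 22.4-fold, and was wider than the step between the replicate pairs of a tissue. L29 against L5 moved less: its ratio was 4.21, 5.05, 2.49 and 2.44 in leaf and 6.41, 6.19, 5.59 and 5.42 in root, a mean step of 2.35 (1.67 in replicates 1 and 2 and 3.04 in replicates 3 and 4), and the highest leaf value came close to the lowest root value.

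L17 against L5 did not involve either of the very bright probes. Its log2 ratio was 1.24, 1.77, 1.07 and 1.60 in leaf and -1.03, -1.52, 0.096 and -0.38 in root. L17 was thus the brighter spot on all leaf arrays and on 1 root array, and the ratio shifted by -2.13, or 4.37-fold, between tissues. The shift was larger in replicates 1 and 2 (-2.78) than in replicates 3 and 4 (-1.48).

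Between L29 and the S1-domain gene the ratio was 2.23, 2.15, 2.93 and 2.24 in leaf and 1.76, 1.60, 1.51 and 1.39 in root on the log2 scale. The step of -0.83, or 1.77-fold, is the smallest of the 6 pairs, although both of these probes changed more than 10-fold in mean intensity. The shared probe that also names AT1G12800 had a ratio of 1.09, root over leaf. L17 against the S1-domain gene shifted by -5.31, or 39.6-fold, the widest step of the 6 pairs. L5 against the S1-domain gene shifted by -3.18, by -2.18 in replicates 1 and 2 and by -4.18 in replicates 3 and 4.

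**Figure D3:**
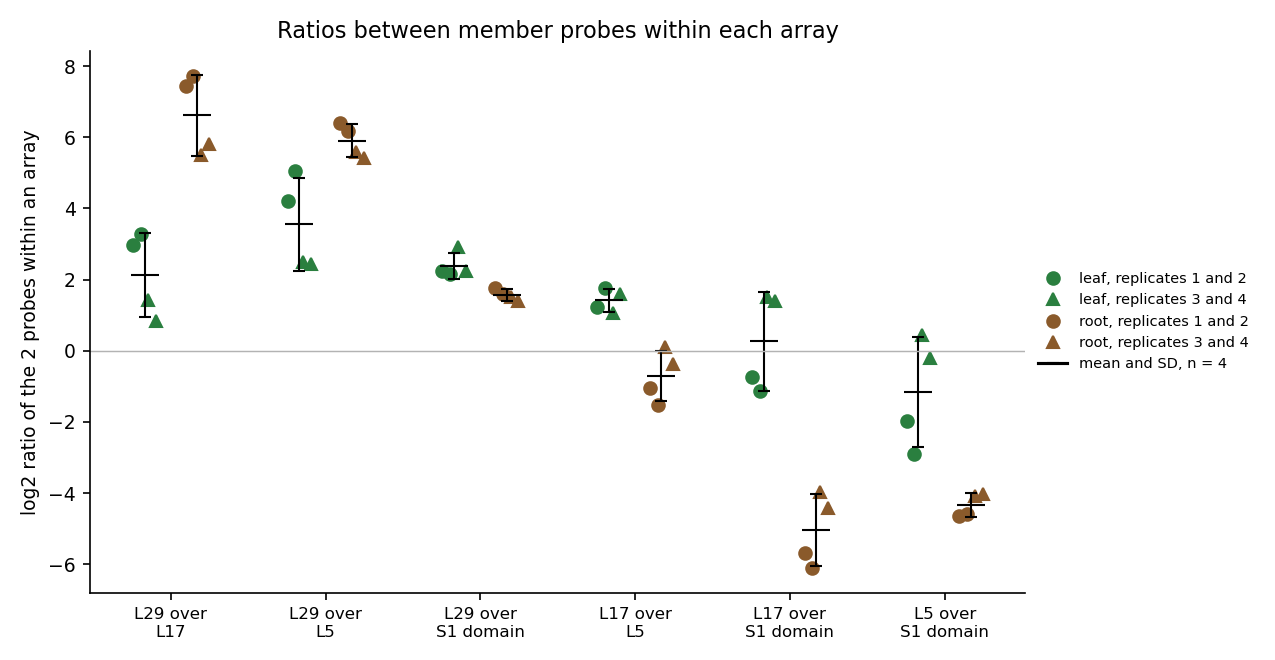
Log2 ratio of 2 member probes within each array, for the 6 pairs of the 4 members above 0 on all arrays; green is leaf, brown is root, circles are replicates 1 and 2, triangles replicates 3 and 4, and bars are the mean and SD of 4 arrays. Leaf and root ratios are apart in each pair. The widest step is 39.6-fold, for L17 over the S1-domain gene, and the smallest is 1.77-fold, for L29 over the S1-domain gene. For L29 over L17 it is 22.4-fold.

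The split between replicates 1 and 2 and replicates 3 and 4 touched the members unequally. Mean L29 intensity was 2.62-fold higher in replicates 1 and 2 in leaf and 2.63-fold higher in root. For the S1-domain gene these values were 3.37 and 2.24. Both genes stood high among the 2087 probes above 0 on every array, at the 97.3rd and 98.8th percentile of this ratio in leaf and at the 95.4th and 92.3rd in root. A ratio of at least 2 in both tissues was found at 37 of the 2087 probes (1.77%). L17 ran the other way, at 0.649 in leaf and 0.692 in root, while L5 was lower in replicates 1 and 2 in leaf (0.607) and higher in root (1.51).

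Probes of similar brightness did not, as a rule, show such a ratio. Among the 113 probes with a leaf mean of 3 to 10, where L29 lay in leaf, the median ratio was 1.12 (quartiles 0.984 and 1.34). Among the 36 probes with a root mean above 10, where both genes lay in root, it was 1.11 (quartiles 0.984 and 1.49). Among the 741 probes with a leaf mean of 0.3 to 1, where the S1-domain gene lay in leaf, it was 1.05 (quartiles 0.826 and 1.28). Both genes were thus above the upper quartile of their band in either tissue. Root over leaf within each pair of replicates is given above for both genes.

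**Figure D4:**
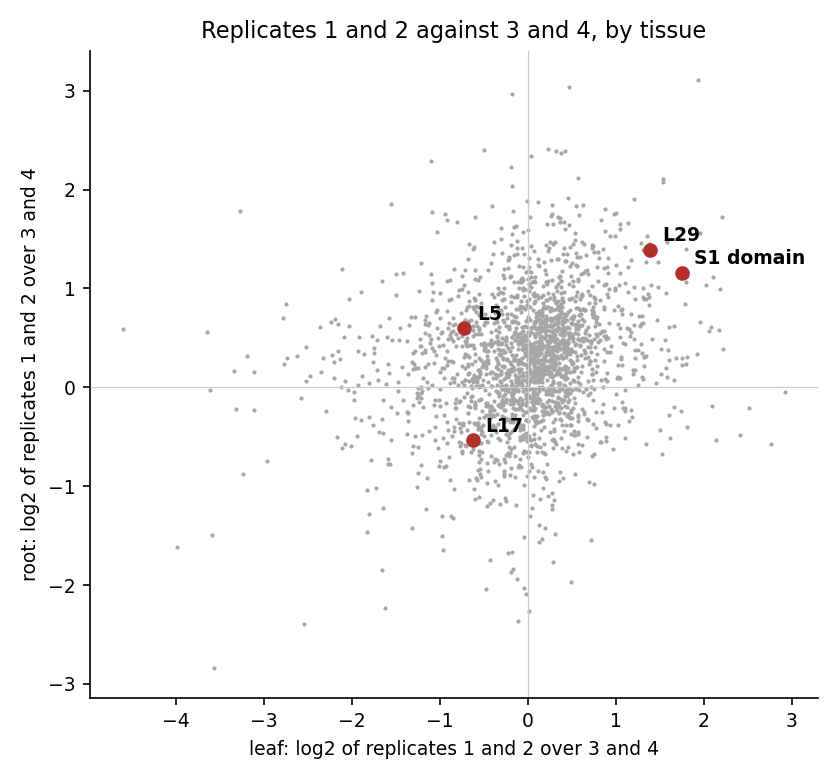
Log2 of the mean intensity of replicates 1 and 2 over that of replicates 3 and 4, in leaf (horizontal axis) and in root (vertical axis); grey points are the 2087 probes above 0 on all 8 arrays, and large points are the 4 members among them. L29 and the S1-domain gene lie at the upper right, with a positive value in both tissues, L17 lies at the lower left, and L5 has opposite signs in the tissues.

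The genes most alike were sought among 389 other single-gene probes above 0 on every array, by Pearson's r of the normalised log2 values over the 8 arrays. With 4 arrays of each tissue, such an r is set mainly by the tissue step and is given as a description. L29 was most like AT5G06010 (r = 0.999) and AT1G25500 (0.994), and its r with the S1-domain gene was 0.998. Among these 389 probes, which leave out the members, the S1-domain gene was most like AT5G06010 (0.997) and AT1G49850 (0.991). Its r of 0.998 with L29 was higher than either. AT5G06010 read 1.50, 1.39, 0.422 and 0.407 in leaf and 33.0, 33.5, 11.2 and 14.0 in root, with the step between tissues and the split between replicate pairs that L29 and the S1-domain gene showed. L17 was most like AT3G16760 (0.959) and AT5G38310 (0.951), and L5 most like AT5G17280 (0.933) and a gene given as DAL1 (0.912). No ribosomal protein probe was among the closest matches of another: r was 0.695 for L29 with L5, -0.625 for L17 with L5, and L29 and L17 ran opposite to each other, with r = -0.927.

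Other parts of plastid gene expression were hardly covered. Of 90 further loci, for plastid ribosomal proteins, translation factors and ribosome assembly, transcription, and RNA binding and processing, 6 had a probe, on 6 probes in all, of which 5 are annotated to several genes. Limma called 1 of the 6 probes higher in root, against 20.1% of all probes, and 2 higher in leaf, against 22.1%. Their median log2 difference was -1.20 after quantile normalisation, where all probes had 0.05, and -0.064 on the deposited intensities, where all probes had 0.80. For the 6 member probes the median was 1.33 and 2.27 on these scales. Both medians depended on dim probes and on the replicate pair. With a floor at the 5th percentile after quantile normalisation, they were -0.65 for the further loci and 0.72 for the members, which take in S10, whose value depends on the floor. With the dimmest 25% of probes left out, the 3 remaining probes of the further loci had a median of 1.05. The 4 remaining members had 2.18. From replicates 1 and 2 alone, where S6 could not be fitted, 5 members had a median of 3.56 and the further loci -1.78. From replicates 3 and 4 alone, the 6 members had 0.096 and the further loci -0.72. All probes had 0.0502 and 0.0046 in these fits. AT1G29070, for the large-subunit protein L34, was the one other ribosomal protein with a probe. It read 0, 0.150, 0.0552 and 0.0199 in leaf and 0, 0.0385, 0.112 and 0.131 in root, dim and overlapping in both tissues, and it was not called.

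Of the called probes, 2 name translation factors and 1 a ribosome assembly factor. A probe shared by FUG1, the plastid initiation factor of the IF2 type, and AT4G11160 read 2.54, 2.28, 1.96 and 2.07 in leaf and 0.735, 0.825, 0.637 and 0.665 in root. Leaf was 3.09-fold brighter, with no overlap and with the same ratio in both replicate pairs. A probe shared by RH39, an RNA helicase of plastid ribosome assembly, and AT3G06980 went the other way, at 0.0431, 0.0223, 0.347 and 0.307 in leaf and 2.60, 2.61, 3.07 and 2.99 in root. Root was 15.7-fold brighter in the mean, 79.7-fold within replicates 1 and 2 and 9.27-fold within replicates 3 and 4, as leaf replicates 1 and 2 lay well below leaf replicates 3 and 4. This call was lost with averages of the replicate pairs.

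The remaining call, towards leaf, was of a probe shared by AT1G34360, AT4G30690 and AT2G24060, genes of the IF3 type. Its intensities overlapped between tissues as deposited, at 0.0190 to 0.139 in leaf and 0.0287 to 0.0691 in root, and its log2 difference of -2.71 after normalisation was -0.57 before it. A second probe for AT4G30690 and AT2G24060 was listed at 0 on 4 root and 2 leaf arrays and was not called. For plastid RNA binding, the probe of AT1G60000 and AT1G01080 had a log2 difference of 1.05 ± 1.26 (SE) and was not called.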

How the data were processed

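The 8 arrays were grouped by the sample titles. The deposited values are linear intensities, 1 per probe and array; how the authors made them (background correction, scaling) is not given in the labels. Intensities ran from 0 to 100 on each array. Probes were named by number through the annotation of the platform and by the RefSeq table of assembly TAIR10.1; names of ribosomal proteins are background knowledge. The RefSeq table was used for names only. No build is named for the values and no sequence was used here, so neither coordinates nor sequences are printed. For the same reason the match of probe to gene was not tested, for the members as for all other probes.

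Intensities were quantile normalised, set to at least 0.00582 (1st percentile of deposited values above 0) and taken to log2; 141 probes that never exceeded this floor were dropped, leaving 3298. Tissues were compared with limma 3.58.1 (R 4.3.3, two-sided, Benjamini-Hochberg adjusted over all probes, threshold 0.05). On simulated data with 3298 probes the test recovered 4% of changes of 0.5, 28% of 1, 82% of 2 and 96% of 4 (log2), with 5 false calls among 110. The simulation changed 50 probes at each of these sizes, fewer than were called in the data, so its rates may not carry over. Pair ratios used the deposited intensities and had no test.

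The members and gene lists were chosen with earlier results of these data known. Named genes were the members, the 2 most alike genes of each member above 0 on all arrays, list members with a probe and 4 leaf markers, of which PSBY was taken from the marker list. Alternatives were other scalings, floors and variance models, a filter on dim probes, blocks, replicate pairs alone and leaving out each array; averages within replicate pairs and quantile normalised pair ratios were added after seeing the data. Figures were drawn with matplotlib 3.10.9.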

Additional observations from a re-analysis of the deposited data

Results flagged for a closer look

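Within a tissue, 3 values stood apart from the other 3 arrays by Dixon's test, among 14 groups of 4 arrays checked; chance flags about 5% of groups. They were S10 (AT3G13120) on leaf replicate 3, at 0.111 against 0, 0 and 0.00989, and S6 (AT1G64510) on leaf replicate 3, at 0.0767, and on root replicate 4, at 0.00283, each against 0 on the other arrays. All 3 lie in groups where most arrays were listed at or near 0. Where the other 3 arrays all read 0, as for S6, any value above 0 is flagged, so the rate of about 5% does not apply there.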

How the results depend on the processing

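L29 and the S1-domain gene were called higher in root under each of 21 alternatives, with leave-one-out log2 differences of 3.46 to 3.85 and 4.27 to 4.91. Members called higher in root numbered 4 on the deposited intensities and 4 with a common mean, S10 and L5 being added (3.23 and 1.32; 3.20 and 1.34), and 2 to 3 without any 1 array. Over all probes, 1138 of 3297 were called higher in root as deposited and 1158 of 3297 with a common mean. The main fit called 664 of 3298, so calls towards root rose over the whole array under these settings. Median centring called S10 (2.80) but not L5. L5 was also called at 0.71 with the 5th percentile floor, zeros as missing, the dimmest 25% of probes left out, or a trended robust variance, and at 0.61 with an offset; leaving out arrays gave 0.50 to 0.82. S10 was called from replicates 1 and 2 only (3.83), reversed in replicates 3 and 4 only (-0.082), and ranged from 1.28 to 2.84 without 1 array, being called without leaf replicate 3. L17 lost its call, leaving 0 members higher in leaf, with a common mean (-0.79), in replicates 3 and 4 only (-1.08), with averages of replicate pairs (-1.29) and without root replicate 1 (range without 1 array -1.54 to -1.08, counts 0 to 1). The shared probe reversed to 0.15 as deposited and 0.17 with a common mean. S6 was called under 0 of 17 alternatives; it could not be fitted with zeros as missing, without the dimmest probes, from replicates 1 and 2 only or without leaf replicate 3. S10 was among the dimmest probes left out and could not be fitted there.

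Of the further plastid loci, 1 probe instead of 2 was called higher in leaf as deposited, with median centring, with a common mean, without the dimmest probes and in replicates 1 and 2 only, and 0 instead of 1 higher in root with averages of replicate pairs. The ratio of L29 to the S1-domain gene shifted by -0.51 in replicates 1 and 2 only and -1.14 in replicates 3 and 4 only, that of L17 to L5 by -2.78 and -1.48, that of L29 to L5 by 1.67 and 3.04, and that of L5 to the S1-domain gene by -2.18 and -4.18. Except where the construction shows it (fewer probes or arrays), the cause was not tested.

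With the replicate number as a block, 2 members were again called higher in root and 1 in leaf (L29 at 3.66, L17 at -1.29), and over all probes 596 and 648 instead of 664 and 729. The main fit treated the 4 arrays of a tissue as independent, which the labels do not state. With averages of the replicate pairs, 336 and 370 probes were called. The SE was then 0.59 for L29 and 0.72 for the S1-domain gene, instead of 0.39 and 0.50. Same-numbered leaf and root arrays deviated together at r = 0.0901 to 0.126, each array best with its own number, against -0.101 to 0.0493 for other pairings; this hints at a pairing from the data, while the labels state none. Intensities at 0 limit S10 and S6.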
